A study of Mus musculus with 25 samples.

Results

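Transcripts of 6 genes that mark mast cells, Cpa3, Mcpt4, Cma1, Tpsb2, Fcer1a and Ms4a2, were followed in 25 mouse melanomas. They were selected by gene symbol from a count table of 55450 genes, and all 6 were present and passed the filter on low counts that left 18031 genes. The tumours came from C57BL/6 mice implanted with M4 (B2905), a cultured mouse melanoma line, and every sequenced tumour came from a mouse given an antibody at 10 mg/kg on 2 days of each week for 2 weeks, starting when tumours averaged 75 mm3. Control tumours (n = 5) received the isotype antibody IgG2b. The 20 anti-CTLA-4 tumours, out of 30 treated mice, were divided by the course of tumour size in the 10 to 11 days after the last dose into non-responders that kept growing (n = 6), stable tumours (n = 6) and responders that shrank (n = 8). All groups therefore carry the same transplanted line in the same strain, the outcome groups were defined by growth and not assigned at random, and neither the age of the mice nor the anti-CTLA-4 clone is given in the sources used here. Tumours of the 5 untreated mice were not analysed here. Replicate numbers below follow the order of the samples and only name a tumour.

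Mast cells are tissue-resident leukocytes that store proteases, histamine and proteoglycan in granules and release them when antigen crosslinks IgE held on their high-affinity receptor, or when ligands bind receptors such as Mrgprb2. Cpa3 encodes mast cell carboxypeptidase, Mcpt4 and Cma1 encode the chymases mMCP-4 and mMCP-5, and Tpsb2 encodes the tryptase mMCP-6. Fcer1a encodes the IgE-binding alpha chain of the receptor FceRI and Ms4a2 its beta chain. Mast cells depend on stem cell factor, the product of Kitl, acting on the receptor Kit, and the transcription factors Gata2 and Mitf maintain their gene programme. In skin they sit around vessels, nerves and hair follicles.

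The 6 genes lie on separate chromosomes except for the chymases. On GRCm38 with GENCODE M21 annotation, Cpa3 (ENSMUSG00000001865.2) is at chr3:20215620-20242181 on the minus strand, Fcer1a (ENSMUSG00000005339.10) at chr1:173221284-173227214 on the minus strand, Tpsb2 (ENSMUSG00000033825.10) at chr17:25366305-25369098 on the plus strand and Ms4a2 (ENSMUSG00000024680.12) at chr19:11615523-11623719 on the minus strand. Mcpt4 (ENSMUSG00000061068.7, chr14:56059629-56062313) and Cma1 (ENSMUSG00000022225.7, chr14:55941451-55944675) both lie in the chymase locus, on the minus strand. All 6 are annotated as protein-coding, and the counts cover whole genes rather than single exons. Near-identical sequence was limited: no 50-base stretch of the Cpa3, Tpsb2 or Fcer1a transcripts occurred in another annotated gene's transcripts, whereas 5.48% of those of Mcpt4 (with Cma2 and Mcpt9), 5.38% of Cma1 (with Gm48934) and 2.10% of Ms4a2 (with Ms4a4b) did, so a small part of their reads could be divided between genes.

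Because the members moved together, their promoters are shown, with matches to short motifs of factors active in mast cells. RefSeq promoter windows (GRCm38.p6, 250 bases before the gene start to 50 after it) were found for 5 of the 6 genes, and Tpsb2 was not among them. GATAA, the core recognised by GATA factors, was searched on both strands, as were CATGTG and CACGTG, E-box forms recognised by Mitf. CACGTG reads the same on both strands, and no matches overlapped one another in these windows. Only the 250 bases before each start are printed, 5′ to 3′ on the gene's own strand, with GATAA, its reverse complement TTATC, and CACATG, the reverse complement of CATGTG, in capitals.
Cpa3 promoter, chr3:20242182-20242431, minus strand: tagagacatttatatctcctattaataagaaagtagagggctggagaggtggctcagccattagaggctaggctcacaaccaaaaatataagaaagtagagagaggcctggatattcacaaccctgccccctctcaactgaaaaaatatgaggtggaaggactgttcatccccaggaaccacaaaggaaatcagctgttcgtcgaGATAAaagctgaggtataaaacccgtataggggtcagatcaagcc
Mcpt4 promoter, chr14:56062311-56062560, minus strand: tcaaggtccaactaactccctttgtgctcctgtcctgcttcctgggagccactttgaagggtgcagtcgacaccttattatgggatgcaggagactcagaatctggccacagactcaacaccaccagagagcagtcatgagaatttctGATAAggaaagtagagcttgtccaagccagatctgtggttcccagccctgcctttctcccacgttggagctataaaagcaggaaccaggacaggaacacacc
Cma1 promoter, chr14:55944676-55944925, minus strand: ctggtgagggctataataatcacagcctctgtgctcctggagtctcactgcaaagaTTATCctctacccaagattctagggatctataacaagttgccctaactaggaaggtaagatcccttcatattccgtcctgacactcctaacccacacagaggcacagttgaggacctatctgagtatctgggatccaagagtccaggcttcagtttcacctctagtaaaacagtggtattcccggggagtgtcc
Fcer1a promoter, chr1:173227230-173227479, minus strand: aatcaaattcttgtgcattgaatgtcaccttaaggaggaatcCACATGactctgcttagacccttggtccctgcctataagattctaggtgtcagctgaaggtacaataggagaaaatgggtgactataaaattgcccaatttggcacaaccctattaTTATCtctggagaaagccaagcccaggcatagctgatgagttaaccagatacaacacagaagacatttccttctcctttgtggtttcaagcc
Ms4a2 promoter, chr19:11623720-11623969, minus strand: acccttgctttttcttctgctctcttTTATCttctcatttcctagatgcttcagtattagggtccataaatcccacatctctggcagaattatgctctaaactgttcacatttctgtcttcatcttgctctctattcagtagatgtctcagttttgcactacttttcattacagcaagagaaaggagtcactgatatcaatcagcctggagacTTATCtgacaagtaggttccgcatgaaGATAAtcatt
GATAA or its reverse complement occurred in 5 of 5 windows, against 25.4% of the 32851 promoter windows in the table. Its first base lay 45 bases before the gene start in Cpa3, 102 in Mcpt4, 194 in Cma1 and 92 in Fcer1a, and Ms4a2 held matches at 224, 37 and 10 bases before its start. CATGTG occurred in 1 member promoter, that of Fcer1a, against 14.2% of all windows, and CACGTG in 0, against 7.15%. These are matches of letters only, and binding was not measured. The windows set beside the member promoters were not matched to them in base composition, and enrichment was not tested.

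The libraries held 8.76 M to 34.3 M counts per tumour, with a median of 14.1 M in responders, 18.3 M in stable tumours, 21.6 M in non-responders and 24.8 M in controls (M, mega). In 7 of the 8 responders, protein-coding genes took 23.8% to 74.3% of the counts, whereas the share was 87.0% in responder 5 and 82.9% to 89.2% in the 17 tumours of the other groups. Mitochondrial rRNA, another measure of library composition, took 1.15% to 14.3% of counts in responders (mean 5.42%), 1.31% to 7.28% in stable tumours (mean 2.87%), 0.783% to 1.06% in non-responders (mean 0.930%) and 0.546% to 0.966% in controls (mean 0.845%). Every responder, number 5 included, and every stable tumour was thus above every non-responder and control in this measure, and its part in the results below was not tested. Levels in CPM, counts scaled to a common library size, use TMM factors, which ranged from 0.339 in responder 1 to 1.05 in responder 5 among the responders. Differences were tested in 1 edgeR quasi-likelihood fit of the 4 group means, and a gene passed at an adjusted p under 0.05 (Benjamini-Hochberg over 18031 genes). The labels carry an id and a running library number for each tumour, and otherwise say only that each replicate is a separate tumour. These library numbers form an unbroken block for each group, so library order and group cannot be told apart. What this order stands for is not given in the sources used here, and its part in the results was not tested. In whole-tumour RNA, fewer mast cells and less mast cell RNA per cell cannot be told apart.

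Each of the 6 genes had its highest mean in non-responders and its lowest in responders. Not all other mast cell genes followed this order, as given below for Tpsab1 and Hdc. The summed level of the 6 genes was 24.5 ± 16.4 CPM in responders (SD, n = 8), 42.9 ± 18.5 in stable tumours (n = 6), 108 ± 30.6 in non-responders (n = 6) and 63.5 ± 28.2 in controls (n = 5). The lowest non-responder, at 68.5 CPM, was above the highest responder, at 49.2 CPM. Sums overlapped between non-responders (68.5 to 144 CPM) and controls (38.6 to 109 CPM). On the deposited RPKM scale, which divides by gene length and so allows genes to be compared, the non-responder means were 19.4 ± 4.61 for Tpsb2, 16.4 ± 5.93 for Cma1, 14.5 ± 5.90 for Mcpt4 and 12.9 ± 4.18 for Cpa3. Neighbours in this order of the 4 proteases lay within 1 SD of each other. Both receptor chains were far lower, with mean RPKM of 2.74 ± 1.25 for Fcer1a and 0.636 ± 0.210 for Ms4a2. In responders, the Tpsb2 level of 7.45 ± 4.05 RPKM stood above those of Mcpt4 (2.76 ± 1.78), Cma1 (2.63 ± 1.65) and Cpa3 (2.05 ± 1.66).

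**Figure D1:**
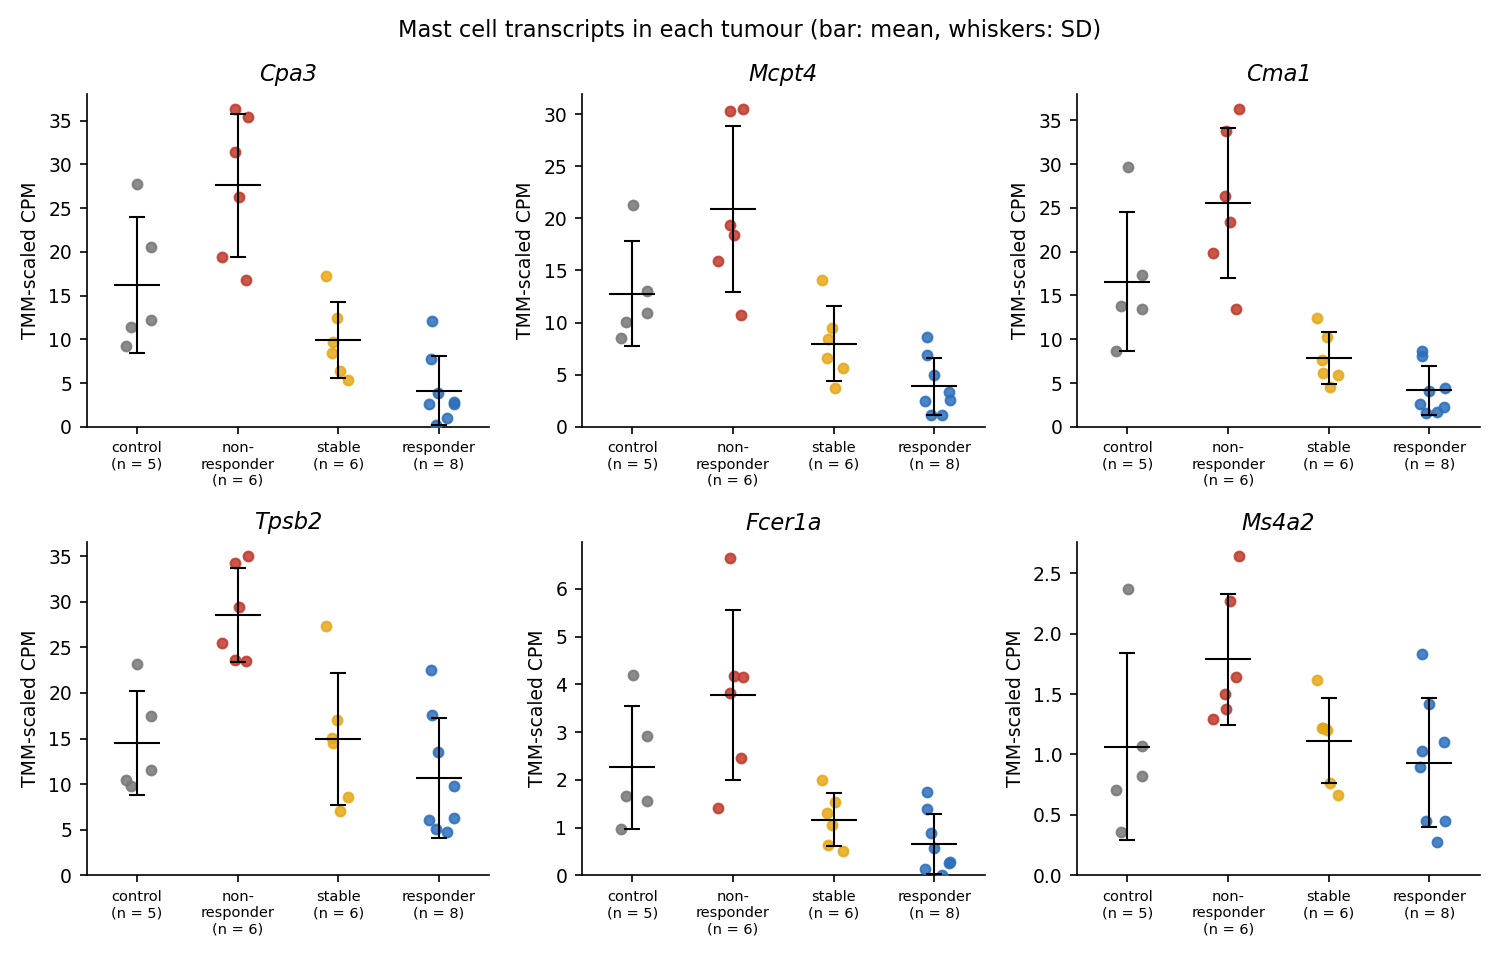
TMM-scaled CPM of each of the 6 genes (vertical axis, linear from 0, a separate scale per gene) in the 4 groups, 1 point per tumour, with the group mean as a bar and the SD as whiskers. For Cpa3, Mcpt4, Cma1 and Tpsb2 every responder lies below every non-responder, and the stable tumours lie between them on average.

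The first question was whether mast cell transcripts differ between tumours that shrank and tumours that grew under the same antibody. The 6 genes had been chosen with earlier results of these data known, so the counts of genes passing are a description. Of the 6 genes, 5 were lower in responders than in non-responders (Cpa3, Mcpt4, Cma1, Tpsb2 and Fcer1a) and 0 were higher, by 2.62-fold to 6.33-fold. Across all tested genes, 48.9% passed in this comparison, 23.8% as lower and 25.2% as higher. The median log2 fold change was -2.41 over the 6 genes and 0.05 over all tested genes. The 4 protease genes did not overlap between the groups, a pattern seen in 2.94% of tested genes as lower and in 2.07% as higher.

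Among the proteases, Cpa3 ranged from 16.8 to 36.3 CPM in non-responders (median 28.9) and from 0.223 to 12.1 CPM in responders (median 2.74). Its 8 responders were all below the lowest non-responder, although responder 1 held only 1 count of Cpa3, under the floor of 0.670 CPM that 3 counts give in that library. The Cpa3 difference was -2.66 on the log2 scale (SE 0.45, adjusted p = 0.000144, edgeR). Mcpt4 ranged from 10.7 to 30.5 CPM in non-responders (median 18.9) and from 1.12 to 8.63 CPM in responders (median 2.92). This chymase was 5.16-fold lower in responders (log2 -2.37, SE 0.38, adjusted p = 9.42e-05, edgeR). Cma1 ranged from 13.5 to 36.3 CPM in non-responders (median 24.8) and from 1.56 to 8.64 CPM in responders (median 3.36), and had the smallest p of the 6 (log2 -2.57, SE 0.36, adjusted p = 3.11e-05, edgeR). Responders 3 and 5 were the highest of their group for all 3 of these genes.

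Tpsb2, the tryptase gene, differed less. It ranged from 23.5 to 35.0 CPM in non-responders (median 27.4) and from 4.75 to 22.5 CPM in responders (median 8.04), and its log2 difference was -1.39 (SE 0.33, adjusted p = 0.00184, edgeR). The groups did not overlap, but the highest responder, number 3, at 22.5 CPM, came close to the lowest non-responder, at 23.5 CPM.

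The receptor chains were measured from few counts. Fcer1a ranged from 1.41 to 6.65 CPM in non-responders (median 3.99, 34 to 103 counts) and from 0 to 1.75 CPM in responders (median 0.419, 0 to 39 counts). The groups overlapped through responder 5 and non-responder 5, and responder 4 held 0 counts, which allows a level of up to 0.419 CPM. The Fcer1a difference was -2.45 (SE 0.54, adjusted p = 0.00100, edgeR). Ms4a2 ranged from 1.29 to 2.64 CPM in non-responders (median 1.57) and from 0.279 to 1.83 CPM in responders (median 0.967), from 2 to 34 counts per responder. Its difference of -0.88 did not pass (SE 0.37, adjusted p = 0.0535, edgeR), and the groups overlapped. It passed with DESeq2 and with limma, under which all 6 genes were called lower.

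The lower protein-coding share of responders ran alongside these levels. In responders 1 to 8 in turn, the summed level of the 6 genes was 9.37, 14.7, 49.1, 8.80, 49.2, 28.5, 16.6 and 19.5 CPM, and the protein-coding share was 23.8%, 72.7%, 74.3%, 54.2%, 87.0%, 70.3%, 62.0% and 67.3%. Responders 1 and 4, with the lowest shares, had the lowest sums, and responders 5 and 3, with the highest shares, had the highest. Within the 8 responders the log2 sum and the share correlated with Pearson r = 0.78 (exact permutation p = 0.0105) and Spearman rho = 0.83 (exact permutation p = 0.0154), 1 relation chosen after the data were seen. Without the 2 tumours farthest from the median share, r was 0.78 (exact permutation p = 0.0625, n = 6) and rho was 0.66 (exact permutation p = 0.175), so the relation no longer passed 0.05 with those tumours left out.

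Adjusted for the protein-coding share in the fit, 2 of the 6 genes, Mcpt4 (log2 -1.40, adjusted p = 0.0372, edgeR) and Cma1 (log2 -1.78, adjusted p = 0.0172, edgeR), still passed as lower in responders than in non-responders. Cpa3 then stood at -1.20 (adjusted p = 0.0740, edgeR), Fcer1a at -2.04 (adjusted p = 0.0558, edgeR) and Tpsb2 at -0.77 (adjusted p = 0.168, edgeR). The count depended on the form of this covariate: with the log2 of the share, tried after the data were seen, 5 of the 6 passed, and with its logit 1 passed, Cma1 (log2 -1.63, adjusted p = 0.0479, edgeR). With responders 1 and 4 left out together, 5 passed. Of the 8 responders, 7 lay outside the range of shares of every other tumour, so for most of this group composition and outcome cannot be told apart.

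**Figure D2:**
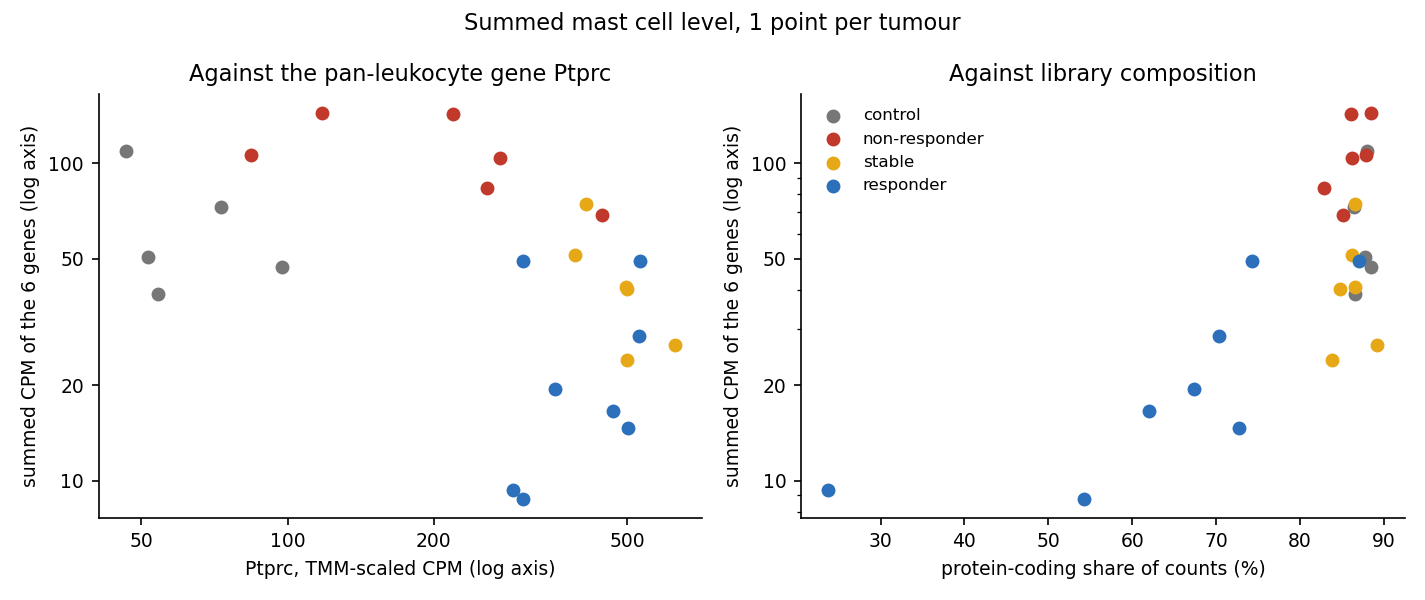
Summed CPM of the 6 genes (vertical axes, log scale), 1 point per tumour coloured by group, against Ptprc in CPM (left, log scale) and against the protein-coding share of counts in percent (right, linear scale). The 6 non-responders, at Ptprc levels of 84.1 to 445 CPM, all lie above the 8 responders, at 291 to 533 CPM, and 7 of the 8 responders lie left of all other tumours in the right panel.

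Stable tumours and non-responders also differed. Their protein-coding shares overlapped (83.8% to 89.2% and 82.9% to 88.4%), but their mitochondrial rRNA shares did not (1.31% to 7.28% and 0.783% to 1.06%). Of the 6 genes, 4 were lower in stable tumours (Cpa3, Mcpt4, Cma1 and Fcer1a) and 0 were higher, where 14.9% of all tested genes passed, 7.86% as lower and 7.08% as higher. Cma1 ranged from 4.59 to 12.4 CPM in stable tumours (median 6.90), with every stable tumour below every non-responder, and was 3.25-fold lower (log2 -1.70, SE 0.38, adjusted p = 0.00612, edgeR). Levels that did not overlap occurred here too in 2.94% of genes as lower and 2.07% as higher, and the 530 lower genes of each comparison shared 245. Mcpt4 ranged from 3.71 to 14.1 CPM (median 7.50) and differed by -1.38 (SE 0.40, adjusted p = 0.0237, edgeR). Only stable tumour 6 reached into the non-responder range for this gene. Cpa3, at 5.35 to 17.2 CPM (median 9.07), differed by -1.47 (SE 0.47, adjusted p = 0.0377, edgeR) and overlapped through the same tumour. Fcer1a, at 0.502 to 1.99 CPM (median 1.18), differed by -1.68 (SE 0.56, adjusted p = 0.0442, edgeR).

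Tpsb2, at 7.06 to 27.3 CPM in stable tumours (median 14.8), did not pass against non-responders (log2 -0.94, SE 0.35, adjusted p = 0.0763, edgeR), nor did Ms4a2, at 0.669 to 1.62 CPM (log2 -0.68, SE 0.40, adjusted p = 0.263, edgeR). The Cma1 difference passed whichever tumour was left out. The count of 4 genes fell to 1 without non-responder 1, non-responder 2 or stable tumour 3, to 2 without non-responder 3 or stable tumour 1, 2 or 4, and to 3 without control 2, 4 or 5, non-responder 4 or stable tumour 5. Of the 25 fits that each left out 1 tumour, the Fcer1a call was lost in 12, the Cpa3 call in 7 and the Mcpt4 call in 3. Markers of other cells moved in the same comparison, where 7.86% of all tested genes were lower and 7.08% higher. Lower in stable tumours were 6 of 6 melanocyte markers (summed levels of 131 to 415 CPM, against 618 to 13396 CPM in non-responders). So were 2 of 4 endothelial and 2 of 3 tested basophil markers, the latter including Fcer1a. Higher were Ptprc, 2 of 6 macrophage, 2 of 4 tested eosinophil, 1 of 4 tested neutrophil and 1 of 5 T cell markers. Markers of dendritic cells, B cells, NK cells, keratinocytes, fibroblasts, adipocytes, skeletal muscle and Schwann cells did not pass. The part of these cells in the mast cell differences was not tested.

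Responders and stable tumours differed less clearly. Of the 6 genes, 2 were lower in responders, Cpa3 (log2 -1.19, SE 0.44, adjusted p = 0.0384, edgeR) and Mcpt4 (log2 -0.98, SE 0.38, adjusted p = 0.0425, edgeR), where 38.2% of all tested genes passed, 17.8% as lower and 20.5% as higher. The ranges of all 6 genes overlapped between these groups, as did those of all but 0.288% of genes as lower and 0.427% as higher. Both calls were lost, leaving 0 of 6, without responder 1, 2, 4, 6, 7 or 8 or without stable tumour 2, 4, 5 or 6, with responders 1 and 4 left out together, and on adjusting for the protein-coding share in any of its 3 forms. The other log2 differences were -0.86 for Cma1 (adjusted p = 0.0574), -0.46 for Tpsb2 (adjusted p = 0.279), -0.77 for Fcer1a (adjusted p = 0.265) and -0.20 for Ms4a2 (adjusted p = 0.692, edgeR for each).

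The IgG2b controls gave the level without anti-CTLA-4. In the 5 controls, numbered 1 to 5, Cpa3 was at 27.8, 20.6, 9.27, 12.2 and 11.4 CPM, Mcpt4 at 21.3, 13.0, 8.53, 10.9 and 10.1 CPM and Cma1 at 29.7, 17.3, 8.61, 13.5 and 13.8 CPM. Tpsb2 was at 23.2, 17.5, 10.5, 11.6 and 9.83 CPM, Fcer1a at 4.20, 2.91, 0.978, 1.56 and 1.66 CPM and Ms4a2 at 2.37, 1.07, 0.704, 0.822 and 0.362 CPM. Control 1 was the highest of its group and control 2 the second highest for each of the 6 genes. The comparisons below share these 5 tumours.

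In responders, 4 of the 6 genes were lower than in controls, where 65.0% of all tested genes passed, 28.9% as lower and 36.1% as higher. Cma1 differed by -1.95 (SE 0.37, adjusted p = 8.29e-05, edgeR), Cpa3 by -1.90 (SE 0.46, adjusted p = 0.000973, edgeR), Mcpt4 by -1.66 (SE 0.39, adjusted p = 0.000731, edgeR) and Fcer1a by -1.72 (SE 0.55, adjusted p = 0.00872, edgeR). For each of the 3 proteases 7 of 8 responders, and for Fcer1a 6 of 8, lay below every control, and all 6 genes overlapped between the groups, where 15.2% of genes were lower and 14.9% higher without overlap. Tpsb2 (-0.42, SE 0.35, adjusted p = 0.294, edgeR) and Ms4a2 (-0.15, SE 0.40, adjusted p = 0.758, edgeR) did not pass. On adjusting for the protein-coding share only Cma1 passed (-1.11, adjusted p = 0.0409, edgeR); with the log2 of the share Mcpt4, Cma1 and Fcer1a passed, and with its logit 0 did.

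In stable tumours, Cma1 alone was lower than in controls, by -1.08 (SE 0.39, adjusted p = 0.0285, edgeR), where 41.8% of all tested genes passed, 19.6% as lower and 22.2% as higher. That call was lost without control 1 or stable tumour 1, 2 or 3, and all 6 genes overlapped, where 17.2% of genes were lower and 18.4% higher without overlap. Cpa3 differed by -0.71 (adjusted p = 0.253), Mcpt4 by -0.68 (adjusted p = 0.199) and Fcer1a by -0.95 (adjusted p = 0.193, edgeR for each). Tpsb2, at 0.04 (SE 0.37), and Ms4a2, at 0.06 (SE 0.42), had fitted differences near 0, with signs that changed under other settings.

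In non-responders all 6 genes had higher means than in controls, by 0.62 to 0.97 on the log2 scale, but 0 passed in the edgeR fit, where 13.9% of all tested genes passed, 10.6% as higher and 3.29% as lower. At an unadjusted p under 0.05 there was 1, Tpsb2, and DESeq2 and limma also called 0. Tpsb2 lay above every control in all 6 non-responders (log2 0.97, SE 0.37, adjusted p = 0.0858, edgeR), a separation found in 2.67% of genes as higher and 1.41% as lower. It passed when only these 2 groups were fitted (adjusted p = 0.0356, edgeR) and on adjusting for the protein-coding share (adjusted p = 0.0362, edgeR); over all the alternatives other than those leaving out 1 tumour its adjusted p ran from 0.0320 to 0.211. With the 3 outcome groups averaged, Cma1 was lower under anti-CTLA-4 than in controls (-0.80, SE 0.31, adjusted p = 0.0320, edgeR), where 51.1% of genes passed, 23.4% as lower and 27.7% as higher. That call was lost, leaving 0 of 6, without control 1 or control 2, under limma and on adjusting for the protein-coding share.

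The 6 genes did not move in equal proportion. Their counts were set against those of Tpsb2 in the same tumour, as log2 ratios with a pseudocount of 0.5. A ratio removes the scaling of the library but not other differences in its composition. The ratios were added after the data were seen, with 30 exact two-sided permutation tests adjusted together. Tpsb2 had by then shown the smallest difference of the proteases between responders and non-responders. Its log2 value was -1.39, against -2.66 for Cpa3, -2.37 for Mcpt4 and -2.57 for Cma1, while Ms4a2 stood at -0.88. The ratios use the same counts, so their directions restate these fold changes and the tests are a description. These tests were not adjusted for the protein-coding share, and its part in the ratios was not tested. The Cpa3 to Tpsb2 ratio was -1.78 ± 1.01 in responders (SD, n = 8), -0.56 ± 0.24 in stable tumours (n = 6), -0.09 ± 0.33 in non-responders (n = 6) and 0.12 ± 0.18 in controls (n = 5). Responder 1, with 1 count of Cpa3, gave the lowest ratio of -3.97. The ratio was lower in responders than in non-responders by -1.70 (exact permutation p = 0.00133, adjusted p = 0.00777), and it was lower in stable tumours than in controls by -0.68 (exact permutation p = 0.00649, adjusted p = 0.0177). The difference of -0.47 between stable tumours and non-responders (exact permutation p = 0.0216, adjusted p = 0.0433) no longer passed in 9 of the 25 tests that each left out 1 tumour.

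The chymase ratios were also lower in responders than in non-responders. The Mcpt4 to Tpsb2 ratio was -1.55 ± 0.37 in responders, -0.88 ± 0.20 in stable tumours and -0.53 ± 0.38 in non-responders, a difference of -1.02 between responders and non-responders (exact permutation p = 0.000666, adjusted p = 0.00777) and of -0.67 between responders and stable tumours (exact permutation p = 0.00233, adjusted p = 0.00777). Between stable tumours and non-responders it did not pass (-0.36, exact permutation p = 0.0758, adjusted p = 0.113). The Cma1 to Tpsb2 ratio was -1.39 ± 0.47 in responders, -0.87 ± 0.29 in stable tumours and -0.22 ± 0.36 in non-responders, a difference of -1.17 between responders and non-responders (exact permutation p = 0.00133, adjusted p = 0.00777). It passed between stable tumours and non-responders (-0.65, exact permutation p = 0.0108, adjusted p = 0.0271) but not between responders and stable tumours (-0.53, exact permutation p = 0.0343, adjusted p = 0.0605). The Ms4a2 ratio moved the other way, from -4.01 ± 0.36 in non-responders to -3.42 ± 0.44 in responders (0.59, exact permutation p = 0.0190, adjusted p = 0.0407), and did not pass when non-responder 1, 3 or 5 or responder 1, 2, 3, 6 or 8 was left out. The Fcer1a ratio, at -3.04 ± 0.63 and -4.36 ± 1.16, did not pass between these groups (exact permutation p = 0.0306, adjusted p = 0.0574). In responders against controls 4 of 5 ratios passed as lower: Cpa3 (-1.90), Mcpt4 (-1.37), Cma1 (-1.54) and Fcer1a (-1.58, adjusted permutation p = 0.0407). The Fcer1a call was lost in 10 of the 25 tests that each left out 1 tumour. Ms4a2 went the other way there (0.50) and did not pass. In stable tumours against controls 3 of 5 passed as lower, those of Cpa3, Mcpt4 and Cma1. Between non-responders and controls 0 of 5 ratios passed these permutation tests, also before adjustment, the differences lying between -0.37 and -0.09.

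**Figure D3:**
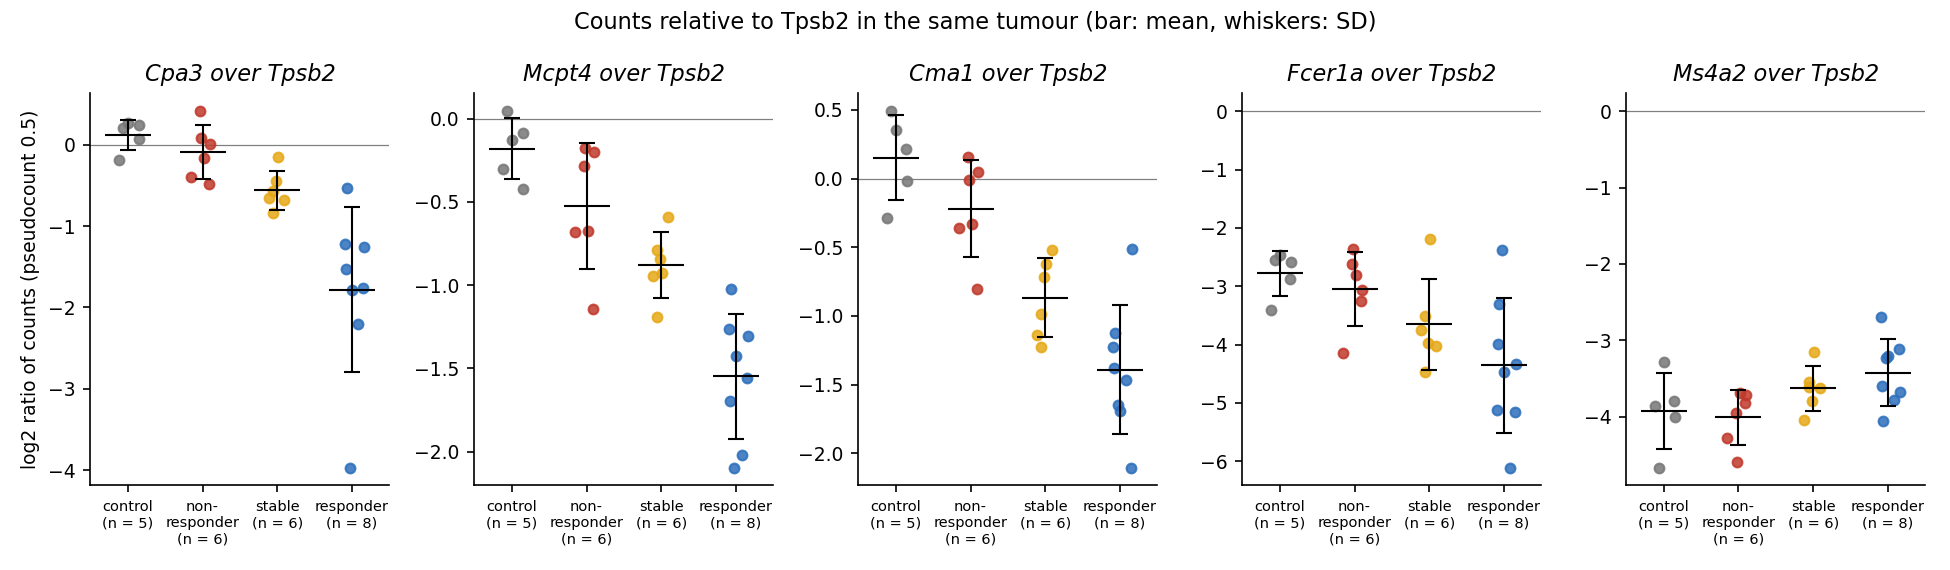
Log2 ratio of the counts of 5 genes to those of Tpsb2 in the same tumour (vertical axis, pseudocount 0.5, a separate scale per gene) by group, 1 point per tumour, with the group mean as a bar and the SD as whiskers. The ratios of Cpa3, Mcpt4 and Cma1 are lowest in responders, and that of Ms4a2 is highest there.

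Within groups the 6 genes varied together from tumour to tumour. Over deviations from the 4 group means in 25 tumours, Spearman's correlation with Cpa3 was 0.96 for Mcpt4, 0.90 for Tpsb2 and 0.90 for Cma1, which took ranks 1, 2 and 3 in likeness to Cpa3 among 18030 genes. Ms4a2 (0.79) ranked 13 and Fcer1a (0.64) ranked 208. Among non-members, leaving out predicted genes, ribosomal protein genes and pseudogenes, Mrgprb1, a receptor of the mast cell Mrgpr family, was first at 0.86. The other 9 of the 10 were Hist1h4i (0.83), Zbtb41 (0.83), Sav1 (0.82), Mtap (0.81), St3gal6 (0.81), Pyurf (0.79), Ccne2 (0.79), Rbmxl1 (0.79) and Scoc (0.78). By Pearson's correlation 4 of these 10 remained among the first 10. Tumours of a group share depth and composition differences, so these values describe the libraries and carry no p.

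Other mast cell proteases gave no call between outcome groups. Of 6 further mast cell proteases, 3 passed the filter on low counts, and their edgeR adjusted p-values between outcome groups were 0.0536 or above. Tpsab1, the tryptase mMCP-7, was at 2.96 ± 0.966 CPM in non-responders and 3.11 ± 0.904 CPM in responders (log2 0.08, SE 0.32, adjusted p = 0.847, edgeR). Mcpt2, a chymase of mucosal mast cells, was at 3.99 ± 4.32 CPM in responders, 3.91 ± 2.71 in stable tumours, 11.4 ± 5.15 in non-responders and 2.53 ± 2.06 in controls. Neither its difference between non-responders and controls (2.17, SE 0.75, adjusted p = 0.0540, edgeR) nor that between responders and non-responders (-1.48, SE 0.63, adjusted p = 0.0536, edgeR) passed. Mcpt1, the other mucosal chymase, was higher in responders than in controls (3.19, SE 1.00, adjusted p = 0.00729, edgeR) from 96 and 11 counts over the groups. Without control 1 that value was 4.47. Mcpt9 had 0 counts in all 25 tumours.

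In responders against non-responders, 3 of 10 receptor genes were lower and 3 higher, shares near those of all tested genes (23.8% lower and 25.2% higher). Mrgprb1 was lowest (-1.77, SE 0.40, adjusted p = 0.00128, edgeR), at 6.64 ± 2.38 CPM in non-responders and 1.88 ± 1.01 CPM in responders. Il9r, the IL-9 receptor gene, also expressed by lymphocytes, was highest (1.72, SE 0.35, adjusted p = 0.000534, edgeR), at 0.647 ± 0.298 and 2.16 ± 1.08 CPM. Mrgprb1 no longer passed on adjusting for the protein-coding share (-0.68, adjusted p = 0.385, edgeR). In stable tumours against non-responders, 2 of 10 were lower and 3 higher (7.86% and 7.08% of all tested genes), led by Mrgprb1 (-1.39, adjusted p = 0.0311, edgeR) and Csf2rb, the common beta chain of the IL-3 receptor that myeloid cells also carry (1.30, adjusted p = 0.00677, edgeR). The Mrgprb1 call was lost without non-responder 1 or 2 or stable tumour 1, 2, 3 or 4. Kit, the stem cell factor receptor gene that melanocytes also express, was at 19.5 ± 3.99 CPM in responders, 22.8 ± 2.89 in stable tumours, 20.9 ± 5.88 in non-responders and 23.4 ± 5.72 in controls, and did not pass in edgeR, with log2 differences from -0.26 to 0.12 and adjusted p-values from 0.189 to 0.896.

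Of 10 granule and mediator genes, 1 was lower and 2 were higher in responders than in non-responders, no more than the shares of all tested genes (23.8% lower and 25.2% higher). Hpgds, the hematopoietic prostaglandin D synthase gene, was lower (-1.74, SE 0.43, adjusted p = 0.00232, edgeR), but from widely spread non-responders at 8.87 to 127 CPM, and by -0.98 without non-responder 3. Hpgds was at 72.4 ± 24.7 CPM in controls and 41.7 ± 45.1 CPM in non-responders. Stable tumours (13.7 ± 2.30 CPM) and responders (12.4 ± 5.09 CPM) were lower, so its highest mean was in controls, unlike those of the 6 genes. Hpgds did not pass on adjusting for the protein-coding share (-1.32, adjusted p = 0.160, edgeR). Ptgs1, encoding cyclooxygenase-1, was highest (0.65, SE 0.24, adjusted p = 0.0268, edgeR), a call lost without non-responder 1 or 3 or responder 2 or 3. Hdc, which makes histamine, was at 2.70 ± 1.69 CPM in responders, 2.60 ± 1.13 in stable tumours, 2.78 ± 0.912 in non-responders and 2.81 ± 1.57 in controls, and did not pass in edgeR either, with log2 differences from -0.11 to 0.07. In stable tumours against non-responders, 2 of 10 were lower and 3 higher (7.86% and 7.08% of all tested genes), from Hpgds (-1.61, adjusted p = 0.0228, edgeR) to the leukotriene C4 synthase gene Ltc4s (1.37, adjusted p = 0.0212, edgeR). Hpgds stood at -0.84 without non-responder 3 and did not pass when non-responder 2 or 3 was left out, and Ltc4s did not pass without non-responder 1, 2 or 3 or stable tumour 3.

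Among 7 transcription factor genes, 3 were lower and 0 higher in responders than in non-responders, against 23.8% and 25.2% of all tested genes. Gata2 was lowest (-1.60, SE 0.34, adjusted p = 0.000812, edgeR), at 2.90 ± 1.26 CPM in responders, 3.22 ± 1.01 in stable tumours, 8.85 ± 5.13 in non-responders and 12.3 ± 3.30 in controls. Tal1 was the least lowered of the 3 (-0.92, SE 0.22, adjusted p = 0.00176, edgeR). Mitf, also the melanocyte factor, was at 453 ± 113 CPM in controls and 81.2 ± 15.6 CPM in responders, far above the level of the 6 mast cell genes. Kitl, the stem cell factor gene, was at 36.6 ± 8.55 CPM in responders, 55.5 ± 11.5 in stable tumours, 90.8 ± 28.5 in non-responders and 112 ± 30.6 in controls. It was lower in responders than in non-responders (-1.31, SE 0.19, adjusted p = 3.69e-05, edgeR) and in stable tumours than in non-responders (-0.71, SE 0.20, adjusted p = 0.0204, edgeR), the latter not without non-responder 3 or stable tumour 3. Of the 9 growth and activating ligands 4 passed the filter on low counts, and Il3 and Il9 had 3 and 1 counts over all 25 tumours. Of the 4 tested, 1 was lower (Kitl) and 1 higher (Tgfb1) in responders than in non-responders, against 23.8% and 25.2% of all tested genes. The same 2 passed in stable tumours against non-responders, against 7.86% and 7.08%. Tgfb1 differed by 0.63 in the first comparison and by 0.52 in the second, a call lost in 6 of the 25 fits that each left out 1 tumour.

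Of 12 signalling genes below the IgE receptor, 7 were higher and 0 lower in responders than in non-responders, against 25.2% and 23.8% of all tested genes, led by the kinase gene Syk (1.10, SE 0.24, adjusted p = 0.00107, edgeR), and Plcg1 was the smallest of the 7 (0.28, adjusted p = 0.0246, edgeR), a call lost without non-responder 3 or responder 1. In stable tumours against non-responders 9 of 12 were higher, against 7.08% of all tested genes, with Lat2 (1.19, adjusted p = 0.00829, edgeR) the largest. Against controls, 12 of 12 were higher in responders (36.1% of all tested genes), 11 in stable tumours (22.2%) and 9 in non-responders (10.6%). These genes also serve other leukocytes: Fcer1g, the gamma chain shared by Fc receptors of myeloid cells, was at 59.8 ± 29.3 CPM in responders, 95.2 ± 10.3 in stable tumours, 48.4 ± 25.8 in non-responders and 18.5 ± 4.51 in controls.

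Markers of other cells that could carry some of these transcripts were read beside them. The basophil proteases Mcpt8 and Prss34, which mark the other cell type with the IgE receptor, had group means of 0.00783 to 0.132 CPM and 0.0890 to 0.219 CPM, and the summed basophil list, which includes Fcer1a and Ms4a2, had group means of 3.03 to 7.58 CPM. Cd200r3, a receptor gene of basophils and mast cells and the only other basophil marker that passed the filter on low counts, was at 1.14 ± 0.376 CPM in responders, 0.723 ± 0.352 in stable tumours, 1.72 ± 0.751 in non-responders and 0.776 ± 0.106 in controls. It was higher in non-responders than in controls (1.13, SE 0.35, adjusted p = 0.0303, edgeR) and lower in stable tumours than in non-responders (-1.23, SE 0.33, adjusted p = 0.0159, edgeR), and did not pass between responders and non-responders (-0.58, SE 0.31, adjusted p = 0.114, edgeR). The part of basophils in the Fcer1a and Ms4a2 levels was not tested. Ptprc, the pan-leukocyte gene, was at 412 ± 107 CPM in responders, 488 ± 84.3 in stable tumours, 233 ± 129 in non-responders and 64.5 ± 21.0 in controls, and exceeded the non-responder level in responders (0.82, SE 0.27, adjusted p = 0.0166, edgeR). Of 5 T cell markers 2 were higher and 0 lower in that comparison, and 1 each of 4 tested eosinophil, 4 tested neutrophil, 4 dendritic cell and 3 B cell markers was higher, shares not far from the 25.2% of all tested genes. Summed macrophage markers were at 638 to 1981 CPM in non-responders and 812 to 2502 CPM in responders. The 4 endothelial markers were lower in 4 of 4 cases, against 23.8% of all tested genes, with summed levels of 124 to 247 CPM in non-responders and 37.3 to 91.7 CPM in responders. The 6 melanocyte markers were lower in 6 of 6, with summed levels of 618 to 13396 CPM and 221 to 611 CPM; keratinocyte markers, a sign of skin in the piece, summed to 1.80 to 297 CPM and 0.629 to 1295 CPM. Lower in responders were also 2 of 5 skeletal muscle, 2 of 3 Schwann cell and 1 of 6 fibroblast markers, and 4 adipocyte markers summed to 2.49 to 19.8 CPM in non-responders and 1.17 to 13.7 CPM in responders. The part of endothelial, melanocyte or skin content in the mast cell differences was not tested.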

How the data were processed

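Whole tumours were profiled by RNA sequencing. Per the submitters' processing notes, bcl2fastq 2.17, Trimmomatic, STAR 2.5.1 and RSEM 1.2.22 were used with mm10; no annotation is given in the sources used here. The labels name both a stranded total RNA kit and polyA RNA, which can change non-coding content and was not settled. The authors' count table holds RSEM-type estimated counts, of which 5.64% of values are not whole, and a table of RPKM, in which 27 rows whose names had become dates were not used. All 55450 gene identifiers were found in GENCODE M21.

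Estimated counts were rounded and fitted with edgeR 4.0.16 in R 4.3.3 (filterByExpr, TMM, robust glmQLFit, glmQLFTest), with all 25 tumours and 4 group means; standard errors are the fold change divided by the root of F. The edgeR step was run on simulated data in which a small share of genes was changed, in responders only. Far more genes differed between these tumours, so that run does not test the scaling under such wide changes. The design had assumed counts, and rounding was the stated provision for estimates. Alternatives were DESeq2 1.42.0, RLE size factors, limma 3.58.1 on log2 of RPKM plus 1 or 0.1, no filter or a stricter filter, protein-coding genes only, the protein-coding share as a covariate, only the groups compared, and each tumour left out. Log2 and logit forms of the covariate, responders 1 and 4 left out together, ratios to Tpsb2 and the relation to composition were added after the data were seen.

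Per length comparisons used the authors' deposited RPKM. Floors are 3 counts in a tumour's scaled library and cover counting error only. Total counts were 8.76 M to 34.3 M (mega) per tumour, so genes under about 1 CPM rest on few counts. The edgeR p-values set differences between groups against the spread between tumours within groups, estimated over all 4 groups. Those of the ratios and of the relation to composition come from permutations. Named genes are the 6 members, the passing gene with the highest and the lowest fold change of each list, for the comparisons described, and the 10 genes most like Cpa3; further list genes (Kit, Hdc, Mitf, Tpsab1, Mcpt2, Mcpt9, Fcer1g, Mcpt8, Prss34, Cd200r3, Il3, Il9) were named after their values were seen. The 6 members and all lists were chosen with earlier results of these data known. Replicates of a group differed by more than sampling noise. Protein sequences were not used here.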

Additional observations from a re-analysis of the deposited data

How the results depend on the processing

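No paired analysis was possible because the replicate numbers follow the order of the samples and tie no tumour of one group to one of another. On adjusting for the protein-coding share, the genes that passed went from 8823 to 1810 and the mast cell genes from 5 to 2 in responders against non-responders, and the genes from 6891 to 0 and the mast cell genes to 0 in responders against stable tumours; the mast cell genes came to 1 in responders against controls, 1 in non-responders against controls and 0 in all anti-CTLA-4 tumours against controls. With the log2 of the share the genes were 4627 and 322 in the first and second of these comparisons, and the mast cell genes 0 in responders against stable tumours, 1 in non-responders against controls and 0 in all anti-CTLA-4 tumours against controls. With the logit the genes were 536, 0 and, in responders against controls, 6668, and the mast cell genes 1, 0 and 0 in the same comparisons, 2 in non-responders against controls and 0 in all anti-CTLA-4 tumours against controls. In responders against stable tumours the mast cell count was also 0 with no filter, with only the groups compared, with protein-coding genes only and with responders 1 and 4 left out (genes 4018), and 1 with the stricter filter. With no filter it was 2 in stable tumours against non-responders. With only the groups compared, 1559 genes and 1 mast cell gene passed in non-responders against controls. Under limma with either pseudocount 0 passed in all anti-CTLA-4 tumours against controls. The cause of these changes was not tested.

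Signs changed as follows. For responders against stable tumours, the share as a covariate gave 0.25 for Cpa3, 0.17 for Tpsb2 and 0.42 for Ms4a2, its log2 gave 0.21 for Ms4a2, its logit gave 0.33 for Cpa3, 0.15 for Mcpt4, 0.06 for Cma1, 0.27 for Tpsb2 and 0.49 for Ms4a2, leaving out responders 1 and 4 gave 0.01 for Ms4a2, and limma gave 0.04 for Stat5b with either pseudocount. For responders against controls, Tpsb2 stood at 0.25, 0.01 and 0.38 with the share, its log2 and its logit, and Ms4a2 at 0.53, 0.29 and 0.62, at 0.00 with limma on RPKM plus 1 and at 0.09 without responders 1 and 4. For stable tumours against controls, Tpsb2 stood at -0.01 with DESeq2 and with RLE size factors, -0.07 and -0.06 with limma on RPKM plus 0.1 and plus 1 and -0.12 with no filter, and Ms4a2 at -0.10 with no filter. Cpa3 stood at 0.08 in all anti-CTLA-4 tumours against controls with the logit. Of the 10 genes most like Cpa3, 4 were shared by Pearson, 1 over the 25 tumours and 1 by Pearson over the 25 tumours.

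With each of the 25 tumours left out in turn, 7255 to 10052 genes and 5 to 6 mast cell genes passed in responders against non-responders, 5131 to 8862 genes and 0 to 3 mast cell genes passed in responders against stable tumours, 1470 to 3804 genes and 1 to 5 mast cell genes passed in stable tumours against non-responders, 10978 to 12223 genes and 4 to 4 mast cell genes passed in responders against controls. Likewise 6657 to 8116 genes and 0 to 1 mast cell genes passed in stable tumours against controls, 1570 to 4237 genes and 0 to 0 mast cell genes passed in non-responders against controls, and 7697 to 10146 genes and 0 to 1 mast cell genes passed in all anti-CTLA-4 tumours against controls. The gene count came to 1470 without non-responder 2, 1517 without non-responder 3 and 1523 without stable tumour 3 in stable tumours against non-responders. It came to 1593 without control 1, 1570 without control 4, 1634 without non-responder 4 and 4237 without non-responder 3 in non-responders against controls. Signs that changed were those of Tpsb2 in stable tumours against controls (-0.22 to 0.27) and of Ms4a2 in stable tumours (-0.16 to 0.58), responders (-0.37 to 0.37) and all anti-CTLA-4 tumours (0.00 to 0.73) against controls.

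Over the 6 genes and 7 comparisons, 1534 alternative values were computed: 1388 kept direction and side of the threshold, 82 no longer passed, 28 newly passed and 36 changed sign. Under RLE size factors the median of all genes in responders against controls was 0.13, against 0.16 with TMM and 0.04 with protein-coding genes only. Leaving out 1 tumour also took the Ms4a2 to Tpsb2 ratio of non-responders against controls from -0.27 to 0.07. Low counts limit Fcer1a and Ms4a2 in responders.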
